A study of Homo sapiens with 24 samples.

Results

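ATF4, DDIT3, TRIB3, ASNS, CHAC1, PSAT1, PHGDH, XBP1, HERPUD1 and HSPA5 are 10 genes of the integrated stress response and the unfolded protein response, described here across all conditions of an array study of U87 cells. They were chosen by name: a gene spot belongs to the set when the array gives it the name of one of the 10, with every probe. That makes 10 of 30982 gene names and 15 of 41000 probes. All 15 probes were bright enough to be tested, so that 10 of 10 genes have values. RNA of U87 MG, a human glioblastoma cell line, was measured 24 h after irradiation with protons on whole-genome Agilent arrays with 2 colours. In U87 2 Gy and U87 10 Gy, called proton therapy (PT) alone, cells given 2 or 10 Gy were compared with untreated cells. In U87 Si306 + 2 Gy, and likewise in U87 Si306 + 10 Gy, cells given the same dose together with 10 µM Si306, a Src family kinase inhibitor, were compared with cells given PT alone. The treated RNA always carried the red dye Cy5 and the control RNA the green dye Cy3, so each value is a log2 ratio of Cy5 to Cy3. The dyes were not swapped, and within a configuration a probe's dye effect and the treatment cannot be told apart.

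The 24 deposited scans carry labels of 6 replicates in each of the 4 configurations, but their headers name 8 arrays, each scanned 3 times. An array is therefore the unit here, with n = 2 arrays in each configuration, and the number of arrays limits the precision. Replicate 5 of U87 2 Gy shares its array with scans that bear the label U87 10 Gy. Across probes, its log2 ratios differed from those scans with an SD of 0.0766 and from scans of its labelled configuration with an SD of 0.18. Replicate 2 of U87 10 Gy shares its array with scans of U87 2 Gy, with SDs of 0.0752 and 0.173. These SDs place each scan with its array but do not show which dose the array received. Each array was given the configuration that most of its 3 scans bear as label. Both scans were left out, which leaves 22, and the values of PT alone that rest on them are also given with every scan kept under its label, for the genes of the pathway lists as counts and as the calls that were lost. Whether the arrays of a configuration carry RNA of separate cultures is not stated, so their spread may be technical. PT alone was hybridized on 1 slide and Si306 on another, so slide and Si306 cannot be told apart. U87 2 Gy and U87 10 Gy share the untreated control, and RNA of PT alone is the control of Si306.

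Most of the listed glioma and mesenchymal markers were present. VIM, CD44, NES, SPARC, FN1, TNC and GFAP were well above background on 8 of 8 arrays in both dyes. CHI3L1 was so on 4 arrays, OLIG2 on 3 in Cy3 and 4 in Cy5, SOX2 on 4 and 5, and S100B on 0 and 1. The leukocyte marker PTPRC and the epithelial markers KRT5 and CDH1 were above background on 0 arrays in either dye. Among the other leukocyte markers, CD14 was above background on 8 arrays, CD3E on 4 in Cy3 and 8 in Cy5, and LYZ on 4 in each. Endothelial PECAM1 was so on 4 arrays in each dye, CDH5 on 0 and 3, and VWF on 3 and 8. Epithelial EPCAM was above background on 6 and 7 arrays. Of the neuronal markers, SYT1 was above background on 8 arrays in each dye, SNAP25 on 4 in each and STMN2 on 0 and 6, while RBFOX3 has no probe by its names. LYZ was the marker of other cells with the largest change under loess, a fall of -0.97 with Si306 + 2 Gy and of -0.95 with Si306 + 10 Gy (-0.20 and -0.43 under median centring, described below), and its part in the results was not tested. Other markers rose with Si306: STMN2 by 0.47 at 2 Gy and 0.55 at 10 Gy (0.19 and 0.49 under median centring), SYT1 by 0.20 and 0.35 (0.35 and 0.49), PECAM1 by 0.28 at both doses (0.97 and 0.75) and EPCAM by 0.33 and 0.31 (1.23 and 0.89). SNAP25 fell by 0.11 at both doses (-0.74 and -0.40 under median centring), calls that were lost with every scan kept under its label (adjusted p = 0.0748 and 0.0672), as was that of CD3E with Si306 + 2 Gy (0.13, adjusted p = 0.105). With PT alone SYT1 fell by 0.49 and 0.39 (-0.18 and -0.08 under median centring). At 2 Gy EPCAM (0.15), LYZ (0.14), STMN2 (0.12) and CD3E (0.11) rose, each of which was below 0 under median centring (-0.34, -0.51, -0.36 and -0.09), and the calls of STMN2 and CD3E were lost with every scan kept. Of the 11 measured markers of other cells, 4 rose and 1 fell at 2 Gy, and 1 rose and 1 fell at 10 Gy. Among all tested gene names 32.1% rose and 24.9% fell at 2 Gy, and 31.1% and 26.3% at 10 Gy. The part of these markers in the results was not tested either. With Si306 at each dose 2 of 3 measured neuronal markers rose and 1 fell, and of 3 endothelial markers 2 rose at 2 Gy and 1 at 10 Gy, of which 1 rose at each dose under median centring. In the same 2 configurations 2 of 4 measured leukocyte markers rose and 1 fell, and under median centring 1 rose. Among all tested gene names 38.4% rose and 27.8% fell with Si306 + 2 Gy, and 35.0% and 27.0% with Si306 + 10 Gy. Under median centring 60.6% and 55.9% of all tested probes rose. Of 10 measured glioma and mesenchymal markers, 3 rose and 3 fell at 2 Gy, and 4 and 4 at 10 Gy. With Si306 + 2 Gy 1 rose and 4 fell, and with Si306 + 10 Gy 3 and 3. TNC read -0.40, -0.71, -0.52 and -0.26 in the 4 configurations (0.30, -0.14, 0.42 and 0.37 under median centring). SPARC rose by 0.37 at 2 Gy and 0.59 at 10 Gy. VIM read -0.36 at 2 Gy and -0.51 with Si306 + 10 Gy (0.44 and 0.54 under median centring). The part of these markers was not tested. In RNA of whole cultures, fewer cells that express a gene and less RNA of it per cell cannot be told apart.

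When unfolded proteins collect in the endoplasmic reticulum (ER), the sensors PERK, IRE1 and ATF6 start the unfolded protein response. PERK, and kinases that sense double-stranded RNA or a lack of amino acids or haem, phosphorylate the initiation factor eIF2. This slows translation in general while ATF4 is translated more. ATF4 then activates genes of amino acid supply and the factor CHOP, encoded by DDIT3. IRE1 splices the mRNA of XBP1 and ATF6 is cut in the Golgi, and both factors raise chaperones and degradation of ER proteins, among them HSPA5, a chaperone known to be abundant in glioblastoma. The arrays measure mRNA and see neither translation nor this splicing.

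Some of the genes hold known regulatory motifs in their upstream sequence. RefSeq promoter windows (GRCh38.p14, 250 bases before each start) matched 10 of 10 genes with 16 windows, and 4 motifs were searched on both strands in these and in 35116 windows of all genes. The ATF4-C/EBP element TGATGNAA was in 3.14% of all windows and in those of ASNS, CHAC1 and HERPUD1. The ER stress element, CCAAT and CCACG with 9 bases of any kind between, was in 0.074% of all windows and in those of XBP1 and HSPA5. The ER stress element II, ATTGG and CCACG with 1 base of any kind between, was in 0.0513% of all windows and in that of HERPUD1. The core TGACGTGG was in 0.612% of all windows and in 0 of the 16. In total 5 of the 16 windows held a match, against 3.86% of all windows, and no matches overlapped. The 5 windows are printed because they hold the matches, which stand in capitals. ASNS lies at chr7:97872409-97872658 on the minus strand with its match 68 to 61 bases before the start, and CHAC1 at chr15:40953221-40953470 on the plus strand with a match of the reverse strand at 209 to 202. HERPUD1 lies at chr16:56931892-56932141 on the plus strand, with the ATF4-C/EBP element of the reverse strand at 176 to 169 and the ER stress element II at 117 to 107. XBP1 lies at chr22:28800570-28800819 and HSPA5 at chr9:125241344-125241593, both on the minus strand, with matches at 52 to 34 and at 66 to 48. A match is a description of letters and not a binding site shown here.
ASNS upstream: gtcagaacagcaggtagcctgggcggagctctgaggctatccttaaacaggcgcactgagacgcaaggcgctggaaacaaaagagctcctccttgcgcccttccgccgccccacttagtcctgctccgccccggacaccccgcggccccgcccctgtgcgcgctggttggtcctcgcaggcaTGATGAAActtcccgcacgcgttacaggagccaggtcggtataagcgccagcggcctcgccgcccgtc
CHAC1 upstream: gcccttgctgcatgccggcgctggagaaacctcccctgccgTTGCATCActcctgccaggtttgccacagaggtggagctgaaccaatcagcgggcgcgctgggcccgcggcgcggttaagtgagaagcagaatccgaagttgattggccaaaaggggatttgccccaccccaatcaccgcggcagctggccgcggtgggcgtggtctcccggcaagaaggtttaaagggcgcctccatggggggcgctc
HERPUD1 upstream: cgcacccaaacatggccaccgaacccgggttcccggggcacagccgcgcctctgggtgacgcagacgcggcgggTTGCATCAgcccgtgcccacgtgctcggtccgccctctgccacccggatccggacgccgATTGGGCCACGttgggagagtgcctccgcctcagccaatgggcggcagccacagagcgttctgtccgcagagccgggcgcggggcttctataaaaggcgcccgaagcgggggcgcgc
XBP1 upstream: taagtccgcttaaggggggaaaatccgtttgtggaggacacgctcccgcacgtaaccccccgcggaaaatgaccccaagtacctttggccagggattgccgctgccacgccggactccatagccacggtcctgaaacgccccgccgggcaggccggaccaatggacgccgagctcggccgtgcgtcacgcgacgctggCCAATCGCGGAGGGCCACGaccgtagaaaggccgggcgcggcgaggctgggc
HSPA5 upstream: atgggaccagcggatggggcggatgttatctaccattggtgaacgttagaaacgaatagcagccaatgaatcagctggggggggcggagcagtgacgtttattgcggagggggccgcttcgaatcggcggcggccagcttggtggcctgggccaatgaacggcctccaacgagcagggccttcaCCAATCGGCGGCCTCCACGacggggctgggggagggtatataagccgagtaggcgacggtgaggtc

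With PT alone members rose and fell, by less than 2-fold under loess, the scaling used here, and the share of them called was near that of all names. At 2 Gy, 5 of the 10 genes rose and 2 fell, where 57.0% of all tested gene names were called, 32.1% up and 24.9% down. At 10 Gy, 5 rose and 1 fell, where 57.4% were called, 31.1% up and 26.3% down. With Si306 + 2 Gy, 4 rose and 3 fell beside 66.2% called, 38.4% up and 27.8% down. With Si306 + 10 Gy, 4 rose and 3 fell beside 62.0% called, 35.0% up and 27.0% down. With every scan under its label, 5 rose and 1 fell at 2 Gy, where 29.6% of all tested probes rose and 23.6% fell, and 5 rose and 1 fell at 10 Gy, where 29.9% rose and 24.4% fell. A gene was called at an adjusted p under 0.05 in limma and stands by its brightest probe. In each configuration and dose difference 0 of the 10 genes reached 2-fold under loess, with or without adjustment of the limma p. Among all names 0.727% were called at 2-fold or more for U87 2 Gy, 0.967% for U87 10 Gy, 0.727% for Si306 + 2 Gy and 0.372% for Si306 + 10 Gy. The median log2 fold change of the members was 0.14 at 2 Gy, 0.17 at 10 Gy, -0.04 with Si306 + 2 Gy and -0.03 with Si306 + 10 Gy, beside medians over all names of 0.02, 0.02, 0.04 and 0.03.

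These directions are relative to the other probes of similar brightness, because the ratios were normalized by loess. Under median centring, which shifts each scan by a constant, the median log2 ratio of all tested probes was 0.24 at 2 Gy, 0.21 at 10 Gy, 0.36 with Si306 + 2 Gy and 0.21 with Si306 + 10 Gy, in place of 0.02, 0.01, 0.03 and 0.02. The share of called probes that rose was then 69%, 69.9%, 67.9% and 70.1%, in place of 56.1%, 53.9%, 55.9% and 54.3%. On that scale 10 of the 10 members rose at 2 Gy, 10 at 10 Gy, 10 with Si306 + 2 Gy and 9 with Si306 + 10 Gy, where 58.3%, 56.5%, 60.6% and 55.9% of all tested probes rose and 84.5%, 80.9%, 89.3% and 79.9% were called in either direction. There ATF4 (1.04), HERPUD1 (1.09) and HSPA5 (1.13) passed 2-fold at 2 Gy, as did 4.92% of all names, and DDIT3 (1.26) and HERPUD1 (1.25) at 10 Gy, as did 3.39%. ATF4 (1.87), HSPA5 (1.48), DDIT3 (1.32), XBP1 (1.11) and CHAC1 (1.09) did so with Si306 + 2 Gy beside 18.4% of all names, and with Si306 + 10 Gy ATF4 (1.34) beside 5.07%. A fall described below is therefore a fall relative to probes of similar brightness, and the value on the other scale stands beside it.

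**Figure D1:**
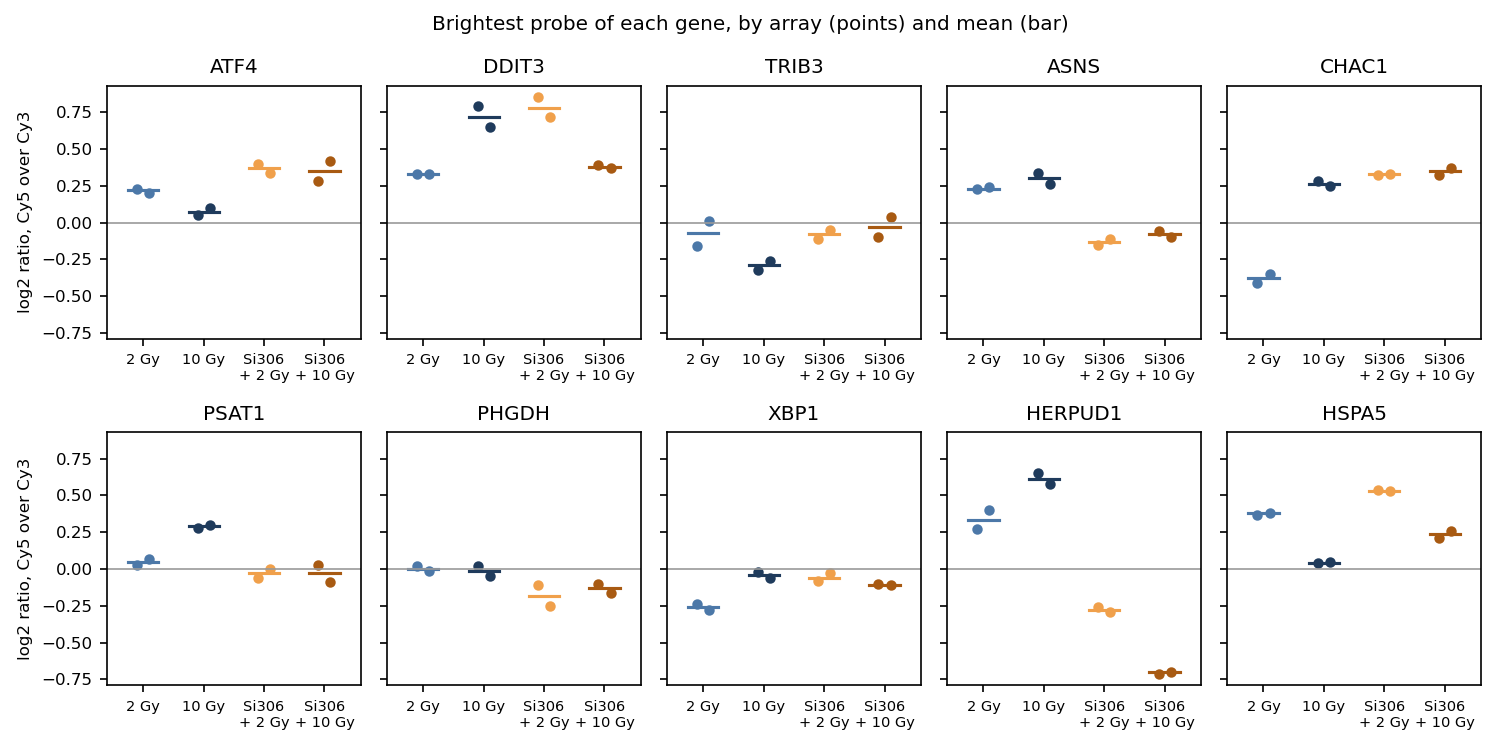
Log2 ratio of Cy5 (treated) to Cy3 (control) for the brightest probe of each of the 10 genes in the 4 configurations; points are the 2 arrays and bars their mean. DDIT3 lies above 0 on every array, HERPUD1 lies above 0 with PT alone and below 0 with Si306, where median centring turns its means to 0.98 and 0.08, and CHAC1 is below 0 at 2 Gy only, where median centring gives 0.23.

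DDIT3, which encodes the stress factor CHOP, rose in all 4 configurations. Its log2 ratio was 0.33 and 0.33 on the arrays of 2 Gy, 0.79 and 0.65 at 10 Gy, 0.85 and 0.72 with Si306 + 2 Gy and 0.39 and 0.37 with Si306 + 10 Gy. Every array was above 0, and the arrays of each pair lay closer to each other than to those of the other dose. For how many other genes this holds was not counted. At 10 Gy this was a rise to 1.65-fold (log2 0.72, SE 0.04, n = 2, adjusted p = 1.16e-07). With Si306 + 2 Gy it reached 1.72-fold (log2 0.78, SE 0.04, n = 2, adjusted p = 6.37e-08). DDIT3 was 0.45 at 2 Gy and 0.59 at 10 Gy with every scan under its label, called in each. In the 22 scans used, the rise at 2 Gy was 0.33 (adjusted p = 4.97e-05) and with Si306 + 10 Gy 0.38 (adjusted p = 1.7e-05), so that the order ran from Si306 + 2 Gy and 10 Gy down to Si306 + 10 Gy and 2 Gy. Under median centring the last 2 change places, at 0.72 with Si306 + 10 Gy and 0.98 at 2 Gy. Neighbours in that order lie on different slides, and their difference was not tested. When spots marked as outliers by their local background alone were kept, a setting chosen after seeing the data, DDIT3 was 0.32 with Si306 + 2 Gy and 0.08 with Si306 + 10 Gy, where it was no longer called (adjusted p = 0.506). The 10 Gy and 2 Gy values, 0.73 and 0.34, then stood above both. With the marked spots left out, the value of array 2 with Si306 + 10 Gy rests on replicate 2 alone. Its 1 probe matches chr12:56197467-56197793 of hg17 on the minus strand.

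ATF4, the transcription factor translated when eIF2 is phosphorylated, rose in 3 of the 4 configurations by its brightest probe. This probe read 0.23 and 0.20 on the arrays of 2 Gy, 0.05 and 0.10 at 10 Gy, 0.40 and 0.34 with Si306 + 2 Gy and 0.28 and 0.42 with Si306 + 10 Gy. The rise was called at 2 Gy (0.22, SE 0.04, adjusted p = 0.000624), with Si306 + 2 Gy (0.37, SE 0.04, adjusted p = 9.02e-06) and with Si306 + 10 Gy (0.35, SE 0.04, adjusted p = 1.58e-05). At 10 Gy the value was 0.07 (adjusted p = 0.133), and with every scan under its label it was 0.15 and called (adjusted p = 0.0302). In the same fit the 2 Gy value was 0.17 and called (adjusted p = 0.0213). The 2 Gy call was lost when spots marked by their local background were kept, at 0.07 (adjusted p = 0.502). The 2 Gy value rests on replicate 6 alone for array 1 and replicate 1 alone for array 2. In the other 2 Gy scans used, the spot was marked and left out. The second ATF4 probe gave another order: 0.34 at 2 Gy, 0.27 at 10 Gy, -0.07 with Si306 + 2 Gy and 0.14 with Si306 + 10 Gy, of which that with Si306 + 2 Gy was not called (adjusted p = 0.127) and was 0.82 under median centring. The brightest probe matches chr22:38243077-38243136 and the second chr22:38242375-38242434 of hg17, with mean log2 intensities of 16.81 and 12.03.

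XBP1, whose mRNA IRE1 splices, fell at 2 Gy, although its direction turned with the scale. The arrays read -0.24 and -0.28 at 2 Gy, -0.02 and -0.06 at 10 Gy, -0.08 and -0.03 with Si306 + 2 Gy and -0.10 and -0.11 with Si306 + 10 Gy. All 8 values were below 0, with those of 2 Gy lowest. The fall was -0.26 at 2 Gy (SE 0.03, adjusted p = 4.32e-05) and 0.45 under median centring. It was -0.19 and called when every scan stayed under its label (adjusted p = 0.00929), where the 10 Gy value was -0.10 and not called (adjusted p = 0.105). With Si306 + 10 Gy it was -0.11 (adjusted p = 0.0161) and 0.64 under median centring, and it was not called without array 1 (-0.11, adjusted p = 0.103) or without array 2 (-0.10, adjusted p = 0.122), nor with every scan under its label (adjusted p = 0.183) or with the marked spots kept (adjusted p = 0.0609). At 10 Gy and with Si306 + 2 Gy it was -0.04 and -0.06 and not called, and 0.56 and 1.11 under median centring. With Si306 + 2 Gy 5 of the 24 alternatives called it a fall, such as the ratio of the scanner software (-0.10, adjusted p = 0.0207). A second XBP1 probe gave 0.05, 0.01, -0.08 and -0.01 in the same order, with 0 of the 4 called in limma (1 at unadjusted p), and 0.59, 0.47, 0.40 and 0.30 under median centring. By the ratio of the scanner software the second probe fell with Si306 + 2 Gy (-0.18, adjusted p = 0.00231) and Si306 + 10 Gy (-0.09, adjusted p = 0.0279). With Si306 + 2 Gy it was also called with no background correction (adjusted p = 0.0436) and with a curve on GC content (adjusted p = 0.0269). The brightest probe lies at chr22:27515287-27515346 and the second at chr22:27517660-27517719 of hg17.

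CHAC1, which degrades glutathione and is a target of ATF4, showed the widest gap between the doses of PT alone among the 10 genes. Its arrays read -0.41 and -0.35 at 2 Gy, 0.28 and 0.25 at 10 Gy, 0.32 and 0.33 with Si306 + 2 Gy and 0.32 and 0.37 with Si306 + 10 Gy. The 2 Gy arrays stood alone below 0. CHAC1 fell by 0.38 at 2 Gy (SE 0.03, adjusted p = 2.48e-06), where median centring gave 0.23, and it rose by 0.26 at 10 Gy (SE 0.03, adjusted p = 4.02e-05). With every scan under its label, these values were -0.17 (adjusted p = 0.329) and 0.05 (adjusted p = 0.797), neither called. It rose by 0.33 with Si306 + 2 Gy (SE 0.03, adjusted p = 7.1e-06) and by 0.35 with Si306 + 10 Gy (SE 0.03, adjusted p = 5.25e-06), but with every scan under its label the same means were not called (adjusted p = 0.122 and 0.109). Its 1 probe lies at chr15:39035814-39035873 of hg17.

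TRIB3, a pseudokinase that ATF4 and CHOP induce and that dampens their activity, fell at 10 Gy by its brightest probe. The arrays read -0.16 and 0.01 at 2 Gy, -0.32 and -0.26 at 10 Gy, -0.11 and -0.05 with Si306 + 2 Gy and -0.10 and 0.04 with Si306 + 10 Gy. The fall at 10 Gy was -0.29 (SE 0.05, adjusted p = 0.000305), and 0.34 under median centring. With the 2 scans whose label and array disagree kept, it was -0.18 and still called (adjusted p = 0.0419). The 2 Gy value was then -0.15 and not called (adjusted p = 0.0957). At 2 Gy the mean was -0.07 and not called (adjusted p = 0.206), and without array 2 it was -0.16 and called (adjusted p = 0.0401), while median centring gave 0.70. With Si306 the means were -0.08 and -0.03, neither called, and 0.97 and 0.65 under median centring. The second TRIB3 probe rose at both doses of PT alone, by 0.46 at 2 Gy (adjusted p = 4.88e-06) and by 0.27 at 10 Gy (adjusted p = 0.000274), opposite to the brightest probe, and by 0.41 and 0.33 with those scans kept. By the ratio of the scanner software neither rise was called (0.49 and 0.29, adjusted p = 0.124 and 0.333). The mean of both probes was 0.19 at 2 Gy, called, and -0.01 at 10 Gy, not called. With Si306 the second probe read -0.06 and 0.02, neither called, and -0.42 and -0.13 under median centring. The brightest probe lies at chr20:326107-326166 and the second at chr20:324856-324915 of hg17, with mean log2 intensities of 14.25 and 8.05.

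The 3 members that make amino acids, ASNS, PSAT1 and PHGDH, rose with PT alone or stayed uncalled, and with Si306 they fell or stayed uncalled, where median centring puts each of them above 0. ASNS, which makes asparagine, read 0.23 and 0.24 at 2 Gy, 0.34 and 0.26 at 10 Gy, -0.15 and -0.11 with Si306 + 2 Gy and -0.06 and -0.10 with Si306 + 10 Gy. It rose by 0.23 at 2 Gy (adjusted p = 0.000132) and by 0.30 at 10 Gy (adjusted p = 1.94e-05), and by 0.25 and 0.26 with every scan kept under its label, called in each. The mean of its 2 probes was 0.08 at 2 Gy and not called (adjusted p = 0.0797). With Si306 + 2 Gy it fell by 0.13 (adjusted p = 0.00629), where median centring gave 0.94, and without array 1 of that configuration the value was -0.11 and not called (adjusted p = 0.0888), nor with the marked spots kept (-0.14, adjusted p = 0.051). With Si306 + 10 Gy it was -0.08 (adjusted p = 0.067) and 0.61 under median centring, while 8 of the 24 alternatives called it a fall, such as the ratio of the scanner software (-0.12, adjusted p = 0.0196). A second, dim ASNS probe (mean log2 intensity 6.42 against 14.11) gave -0.08 at both doses of PT alone, not called (-0.11 and -0.12 with every scan kept, the second of them called at adjusted p = 0.0428), -0.06 with Si306 + 2 Gy, not called, and -0.17 with Si306 + 10 Gy (adjusted p = 0.00962). Under median centring this dim probe lay below 0 in each configuration, from -0.33 at 2 Gy to -0.56 with Si306 + 2 Gy, while the bright probe lay above it.

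PSAT1, which forms phosphoserine on the way to serine, read 0.03 and 0.07 at 2 Gy and 0.28 and 0.30 at 10 Gy. It rose by 0.29 at 10 Gy (SE 0.04, adjusted p = 4.28e-05), while the 2 Gy mean of 0.05 was not called (adjusted p = 0.246). These were 0.21, called, and 0.10, not called (adjusted p = 0.00787 and 0.131), with every scan kept under its label. With Si306 its mean was -0.03 at both doses, not called, and 0.90 and 0.57 under median centring. PHGDH, the entry enzyme of the same path, read 0.02 and -0.01 at 2 Gy and 0.02 and -0.05 at 10 Gy. Neither mean was called (0.00 and -0.01, adjusted p = 0.932 and 0.809). They were 0.64 and 0.51 under median centring, and 0.02 and -0.01, not called, with every scan kept under its label. With Si306 + 2 Gy its arrays read -0.11 and -0.25, a fall of -0.18 (SE 0.04, adjusted p = 0.00204) that was 0.33 under median centring. Without array 2 of that configuration it was -0.11 and not called (adjusted p = 0.0849). With Si306 + 10 Gy they read -0.10 and -0.16, a fall of -0.13 (SE 0.04, adjusted p = 0.0181) that was 0.24 under median centring. Without array 1 this was -0.16 (adjusted p = 0.0507) and without array 2 -0.10 (adjusted p = 0.21), neither called. With spots marked by their local background kept, neither Si306 value of PHGDH was called (-0.09 and -0.03, adjusted p = 0.0991 and 0.861). The probes of PSAT1 and PHGDH lie at chr9:78174332-78174391 and chr1:119997571-119997630 of hg17.

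HERPUD1, an ER membrane protein of the degradation machinery, changed in opposite directions with PT alone and with Si306, where median centring keeps it above 0. Its arrays read 0.27 and 0.40 at 2 Gy, 0.65 and 0.58 at 10 Gy, -0.26 and -0.29 with Si306 + 2 Gy and -0.71 and -0.70 with Si306 + 10 Gy. No arrays of different configurations overlapped, and how many other genes show this was not counted. It rose by 0.33 at 2 Gy (SE 0.04, adjusted p = 2.05e-05) and to 1.53-fold at 10 Gy (log2 0.61, SE 0.04, adjusted p = 1.64e-07). These were 0.45 and 0.55 with every scan under its label, called in each. With Si306 + 2 Gy it fell by 0.28 (SE 0.04, adjusted p = 7.36e-05), against 0.98 under median centring. With Si306 + 10 Gy it fell by 0.70 (SE 0.04, adjusted p = 8.67e-08), the lowest mean among the brightest probes of the 10 genes, against 0.08 under median centring. The PT-alone RNA is the treated side of one ratio and the control of the other. Its probe lies at chr16:55535201-55535260 of hg17.

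HSPA5, the chaperone BiP that binds unfolded proteins in the ER, rose by its brightest probe in 3 of the 4 configurations. The arrays read 0.37 and 0.38 at 2 Gy, 0.04 and 0.05 at 10 Gy, 0.54 and 0.53 with Si306 + 2 Gy and 0.21 and 0.26 with Si306 + 10 Gy. Both 2 Gy means stood above the 10 Gy mean of the same slide. The rise was 0.38 at 2 Gy (SE 0.03, adjusted p = 2.03e-06), 0.53 with Si306 + 2 Gy (SE 0.03, adjusted p = 1.17e-07) and 0.24 with Si306 + 10 Gy (SE 0.03, adjusted p = 6.88e-05), and the 10 Gy value of 0.04 was not called (adjusted p = 0.266). With every scan under its label, the value was 0.27 at 2 Gy (adjusted p = 0.0191) and 0.20 at 10 Gy, not called (adjusted p = 0.0669), and Si306 + 10 Gy was not called (adjusted p = 0.0858). The second HSPA5 probe read -0.52 and -0.59 at 2 Gy, -0.69 and -0.85 at 10 Gy, 0.17 and 0.23 with Si306 + 2 Gy and -0.53 and -0.23 with Si306 + 10 Gy. It fell to -0.55 at 2 Gy (adjusted p = 1.96e-05), to -0.77 at 10 Gy (adjusted p = 1.26e-06) and to -0.38 with Si306 + 10 Gy (adjusted p = 0.000305), against 0.16, -0.21 and 0.17 under median centring. With Si306 + 2 Gy it rose by 0.20 (adjusted p = 0.0148). In the fit with every scan under its label, the second probe was -0.64 at 2 Gy and -0.70 at 10 Gy, called in each, and its 0.20 with Si306 + 2 Gy was not (adjusted p = 0.0689). The mean of both probes turned the sign to -0.09 at 2 Gy, -0.36 at 10 Gy and -0.07 with Si306 + 10 Gy. The brightest probe lies at chr9:125076703-125076762 of hg17, while the 60 bases of the second are spread over 1046 bases at chr9:125078978-125080023. Their mean log2 intensities were 13.76 and 12.50, so both are bright, and which of them follows the transcript was not tested.

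**Figure D2:**
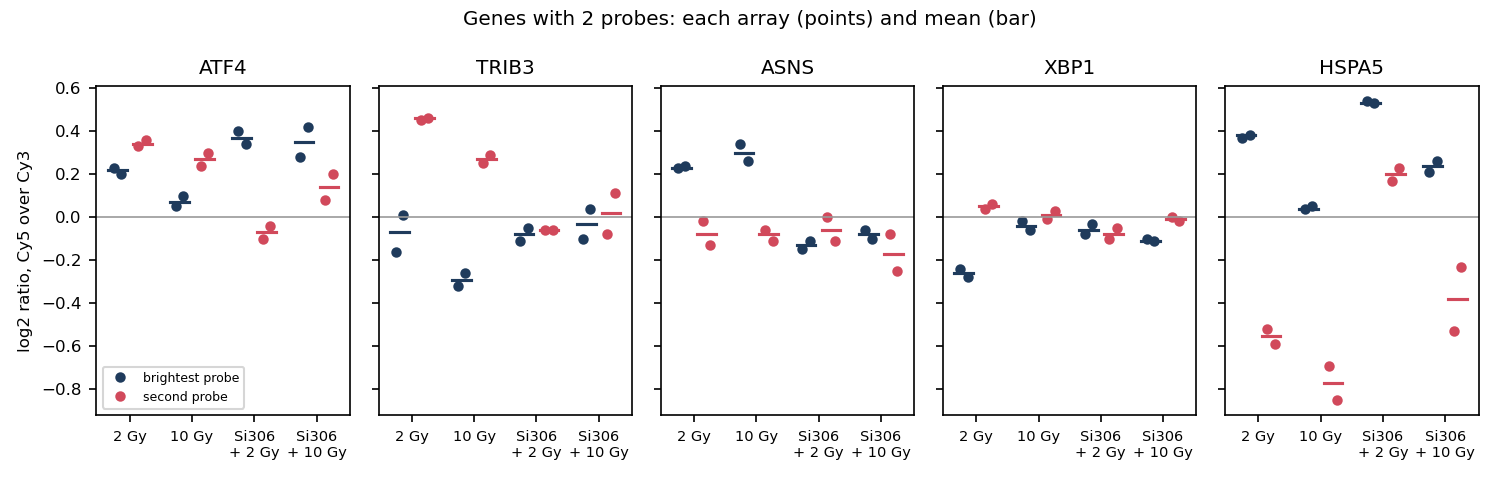
Log2 ratio of Cy5 to Cy3 for the 5 genes with 2 probes, by configuration; points are the 2 arrays and bars their mean, dark for the brightest probe and red for the second. The means of the TRIB3 and the HSPA5 probes lie on opposite sides of 0 with PT alone, although under median centring both TRIB3 probes lie above 0 and so does the second HSPA5 probe at 2 Gy (0.16).

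The dose contrast asks whether a gene responds differently at 10 Gy than at 2 Gy, and a constant dye effect of a probe cancels in it. With Si306 each ratio is against PT alone of the same dose, so a lower value is a smaller ratio to that control. It does not compare the amount of RNA between the doses. On both slides the 2 Gy arrays lay at positions 1 and 4 and the 10 Gy arrays at positions 2 and 3. Dose and position on the slide therefore cannot be told apart. For PT alone, 5 of the 10 genes were higher at 10 Gy and 2 lower, where 20.5% of all names were called, 9.64% up and 10.9% down, and 0.0438% at 2-fold or more. Across Si306, 3 genes had a lower ratio at 10 Gy and 0 a higher one in limma (0 also at unadjusted p). Among all names 22.0% were called, 9.81% up and 12.1% down, and 0.171% at 2-fold or more. Under median centring the share of called probes that were higher at 10 Gy was 30.5% for PT alone and 32% with Si306, in place of 46.6% and 44.2%. On that scale 2 members were higher and 3 lower for PT alone, where 4.8% of all tested probes were higher and 10.9% lower. With Si306, 9 were lower, where 40.1% of all tested probes were lower and 18.9% higher. The median difference over the members was 0.14 for PT alone and -0.01 with Si306, against -0.01 in each over all names.

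CHAC1 differed most, with a 10 Gy minus 2 Gy difference of 0.65 (95% interval 0.55 to 0.75, adjusted p = 1.99e-05). DDIT3 was higher at 10 Gy with PT alone by 0.39 (0.25 to 0.52, adjusted p = 0.00143). Its ratio of Si306 + PT to PT alone was lower at 10 Gy by -0.41 (-0.54 to -0.27, adjusted p = 0.00118). HERPUD1 was higher at 10 Gy with PT alone by 0.28 (0.16 to 0.40, adjusted p = 0.0046), and its Si306 ratio was lower there by -0.43 (-0.55 to -0.31, adjusted p = 0.000432). Under median centring DDIT3 was 0.28 with PT alone (adjusted p = 0.0252) and -0.59 with Si306, called in each, while HERPUD1 was 0.16 with PT alone, not called (adjusted p = 0.248), and -0.90 with Si306. With the marked spots kept, HERPUD1 was not called in either (0.31 and -0.41, adjusted p = 0.0911 and 0.0698). The signs of both genes were thus opposite on the 2 slides, called on both scales for DDIT3. The PT-alone difference of HERPUD1 rests on the scale, and the contrast between the slides was not tested. RNA of PT alone is the treated side on 1 slide and the control on the other, so the 2 differences are not independent. HSPA5 had a lower ratio at 10 Gy in both. It was -0.33 with PT alone (-0.43 to -0.23, adjusted p = 0.00063), and with Si306 -0.30 (-0.40 to -0.20, adjusted p = 0.00122) and -0.64 under median centring. Its second probe gave -0.22 (adjusted p = 0.111) and -0.58 (adjusted p = 0.00134). Under median centring that probe was at -0.37 (adjusted p = 0.00696) and -0.88, called in each. PSAT1 was higher at 10 Gy by 0.24 with PT alone (0.12 to 0.36, adjusted p = 0.0091), which was not called under median centring (0.13, adjusted p = 0.32), by the ratio of the scanner software (0.19, adjusted p = 0.0674) or without array 2 of 10 Gy (0.23, adjusted p = 0.0656). XBP1 was higher by 0.22 (0.12 to 0.32, adjusted p = 0.00757), but was 0.11 and not called under median centring (adjusted p = 0.377). Its second probe gave -0.04 (adjusted p = 0.621). The XBP1 value was also not called without array 1 of 10 Gy (0.20, adjusted p = 0.0563) or with the marked spots kept (0.23, adjusted p = 0.0656).

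TRIB3 was lower at 10 Gy by -0.22 with PT alone (-0.36 to -0.07, adjusted p = 0.0451), close to the limit, and by -0.36 under median centring (adjusted p = 0.011). It was not called by the ratio of the scanner software (-0.26, adjusted p = 0.0578), with normexp at another offset (-0.21, adjusted p = 0.112) or with no filter on intensity (adjusted p = 0.079). Nor was it called without array 2 of 2 Gy (-0.13, adjusted p = 0.241), array 1 of 10 Gy (-0.19, adjusted p = 0.223), array 2 of 10 Gy (-0.25, adjusted p = 0.119), or either array of Si306 + 2 Gy (-0.22, adjusted p = 0.0579). Its second probe gave -0.19 (adjusted p = 0.0507). That probe was called under median centring (-0.27, adjusted p = 0.0248) and with no background correction (-0.19, adjusted p = 0.0374). It was not called by the ratio of the scanner software (-0.20, adjusted p = 0.743) or with normexp at another offset (-0.20, adjusted p = 0.225). ATF4, ASNS and PHGDH were not called for PT alone, at -0.14, 0.06 and -0.02 (adjusted p = 0.0938, 0.409 and 0.874). With Si306, 7 of the 10 genes were not called, ATF4 among them at -0.02 (-0.14 to 0.10, adjusted p = 0.84), while its second probe gave 0.21 (adjusted p = 0.0178), and -0.09 under median centring. Under median centring ATF4 was -0.30 with PT alone and -0.52 with Si306, called in each. The PT-alone value was also called with scans as samples and the array as a random block (-0.15, adjusted p = 0.0265) and with only probes well above background in both dyes on every array (-0.14, adjusted p = 0.045), so it lies close to the threshold.

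These PT-alone differences rest on leaving out the 2 scans whose label and array disagree. With every scan under its label, 0 members were called in limma, at an adjusted or an unadjusted p, as were 0% of all probes. The difference of CHAC1 was then 0.21, of DDIT3 0.14, of PSAT1 0.10, of HERPUD1 0.09 and of XBP1 0.08, with adjusted p = 0.996 for each. HSPA5 was at -0.07 and TRIB3 at -0.04, also at 0.996. Each kept its sign at a smaller size. For Si306, where no scan has such a label, 1 member was called in that fit, HERPUD1 (adjusted p = 0.0488), beside 7.87% of all probes. Without both arrays that hold such a scan, 4 members were called for PT alone, 3 higher and 1 lower, where 3.84% of all tested probes were higher and 4.25% lower, and TRIB3, PSAT1 and XBP1 were not. When spots marked by their local background were kept, CHAC1, DDIT3, PSAT1 and HSPA5 were called for PT alone and 0 members for Si306 in limma (3 at unadjusted p), where 3.14% and 1.03% of all probes were called. DDIT3 with Si306 was then -0.24 (adjusted p = 0.252).

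**Figure D3:**
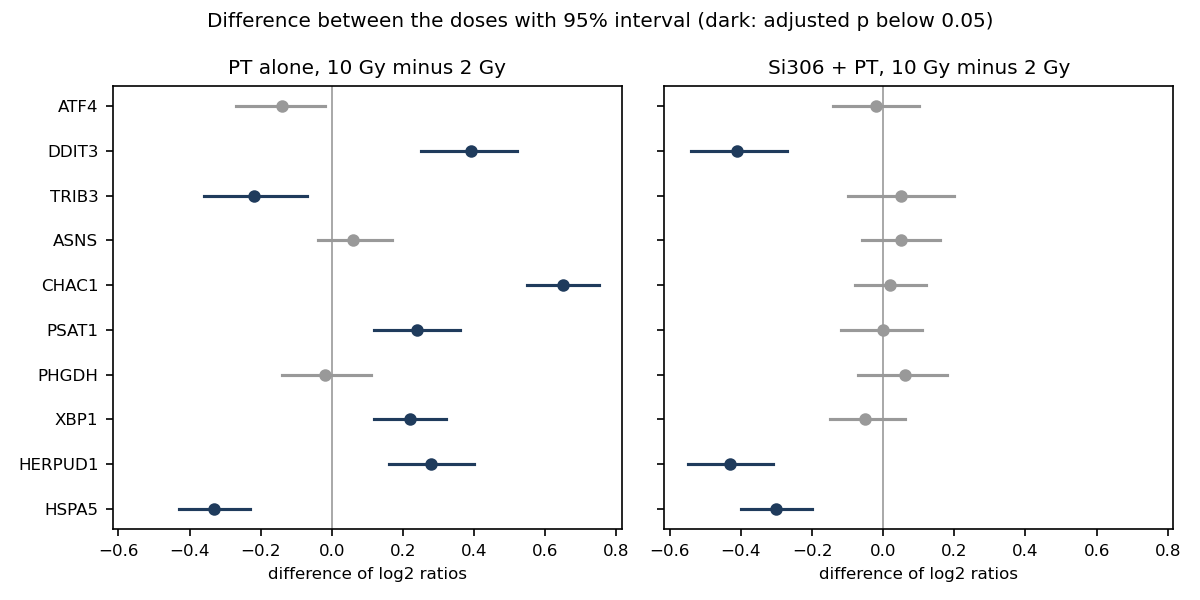
Difference of log2 ratios between 10 Gy and 2 Gy for each gene's brightest probe, for PT alone (left) and Si306 (right), with 95% intervals; dark points passed an adjusted p of 0.05. DDIT3 and HERPUD1 lie right of 0 with PT alone and left of 0 with Si306, and under median centring TRIB3, ASNS and CHAC1 move left of 0 with Si306, to -0.32, -0.33 and -0.23, and so does PHGDH, to -0.09.

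**Figure D4:**
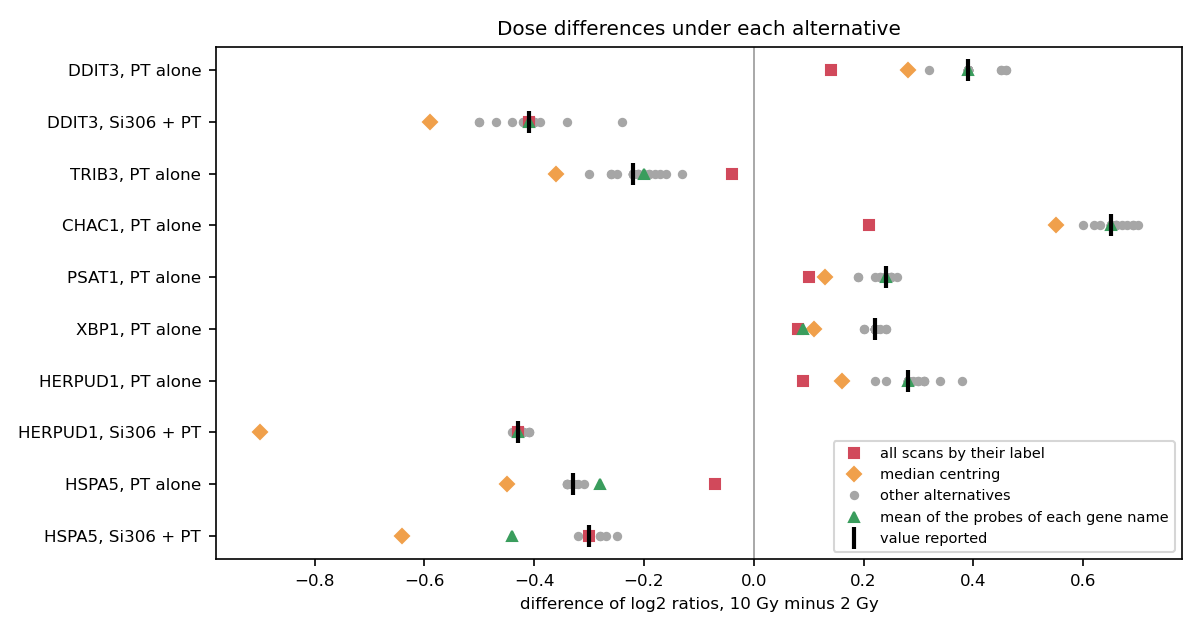
The 10 called dose differences (bars) and their values under each alternative processing (symbols), as differences of log2 ratios. Each alternative keeps the side of 0, and including every scan under its label pulls the PT-alone differences toward 0, such as CHAC1 from 0.65 to 0.21.

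Among all other genes, 5 came closest to DDIT3 in their 4 configuration means, by Euclidean distance over 11206 names with a known symbol. RDH10 lay at a distance of 0.117 with means of 0.24, 0.66, 0.75 and 0.39 in the order 2 Gy, 10 Gy, Si306 + 2 Gy and Si306 + 10 Gy. SLC30A3 lay at 0.243, HSPA4L at 0.257, EFNB1 at 0.267 and PEG10 at 0.295. DDIT3 was taken because it had the largest summed squares of the 4 means among the 10 genes.

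The genes around the members in these pathways were read from lists made by function. Directions are again relative to probes of similar brightness, and median centring turns most of the falls named here. The counts stand beside the shares of all names given above, 32.1% up and 24.9% down at 2 Gy, 31.1% and 26.3% at 10 Gy, 38.4% and 27.8% with Si306 + 2 Gy, and 35.0% and 27.0% with Si306 + 10 Gy, and those under median centring beside 58.3%, 56.5%, 60.6% and 55.9% of all probes that rose. Of 14 genes for eIF2, its kinases, exchange factor and phosphatase subunits, 4 rose and 5 fell at 2 Gy, 9 and 3 at 10 Gy, 3 and 5 with Si306 + 2 Gy, and 3 and 6 with Si306 + 10 Gy, while 13, 13, 14 and 10 rose under median centring. EIF2B4 rose by 0.73 at 2 Gy and 0.62 at 10 Gy, EIF2AK4 by 0.36 at 10 Gy, EIF2B2 by 0.40 and PPP1R15A by 0.20 with Si306 + 2 Gy, and EIF2AK1 by 0.31 with Si306 + 10 Gy. EIF2B3 rose by 0.39 at 2 Gy but was -0.38 with Si306 + 2 Gy (0.23 under median centring) and -0.57 with Si306 + 10 Gy (-0.17). EIF2S1, the eIF2 subunit that is phosphorylated, read -0.64 with Si306 + 2 Gy (0.17 under median centring) and -0.90 with Si306 + 10 Gy (-0.37), EIF2S2 -0.26 (0.37) and EIF2AK2 -0.22 (0.33) at 2 Gy, and PPP1R15B -0.28 at 10 Gy (-0.07). Of 6 dimer partners of ATF4 and related factors, 2 rose and 3 fell at 2 Gy, 2 and 4 at 10 Gy, 4 and 1 with Si306 + 2 Gy, and 5 and 0 with Si306 + 10 Gy (0 also at unadjusted p in limma), while 6 of 6 rose in each under median centring. ATF3 rose by 1.88 with Si306 + 2 Gy and 0.70 with Si306 + 10 Gy but was -0.28 at 2 Gy (0.41), JDP2 rose by 0.52 and 0.87 with Si306, ATF5 by 0.36 at 2 Gy, and CEBPG read -0.40 (0.14) and NUPR1 -0.16 (0.49) at 10 Gy, and CEBPB -0.15 with Si306 + 2 Gy (0.98).

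Of 7 measured ATF4 stress targets of 8 listed, 4 rose and 3 fell at 2 Gy, 6 and 0 at 10 Gy, 5 and 1 with Si306 + 2 Gy, and 5 and 0 with Si306 + 10 Gy (both 0 also at unadjusted p in limma), while 7, 7, 5 and 6 rose under median centring. GDF15 rose in each, by 0.31, 1.27, 0.77 and 0.67, DDIT4 by 0.83 and 1.07 with Si306, SESN2 by 0.39 at 10 Gy and STC2 by 0.22 at 2 Gy, while GPT2 was -0.25 (0.23) and VLDLR -0.23 (0.29) at 2 Gy. Of 9 amino acid transporters (8 measured at 2 Gy), 2 rose and 5 fell at 2 Gy, 2 and 5 at 10 Gy, 2 and 4 with Si306 + 2 Gy, and 2 and 5 with Si306 + 10 Gy, while 4, 5, 5 and 4 rose under median centring. The glutamine carrier SLC1A5 rose by 1.07 at 2 Gy and 1.04 at 10 Gy, while SLC38A2 fell on both scales with PT alone, to -0.94 (-0.24) and -1.04 (-0.46), and rose by 0.38 and 0.20 with Si306. SLC1A4 was -0.46 at 2 Gy (0.12), SLC6A9 0.12 at 2 Gy (-0.29), SLC43A1 0.17 with Si306 + 2 Gy and SLC7A1 -0.34 with Si306 + 10 Gy (0.13). SLC7A11, the cystine carrier, rose by 0.19 at 10 Gy and fell on both scales with Si306 + 2 Gy, to -0.36 (-0.45). SLC7A5 was -0.56 with Si306 + 2 Gy (0.02) and fell on both scales with Si306 + 10 Gy, to -0.62 (-0.25). Of 8 enzymes of serine, one-carbon and proline synthesis, 0 rose (0 at unadjusted p in limma) and 5 fell at 2 Gy, 1 and 4 at 10 Gy, 5 and 0 with Si306 + 2 Gy, and 4 and 0 with Si306 + 10 Gy (both 0 also at unadjusted p), while 7 rose in each under median centring. MTHFD2 rose by 0.53 and 0.41 with Si306, MTHFD1L by 0.66 with Si306 + 2 Gy and SHMT2 by 0.33 with Si306 + 10 Gy, although SHMT2 was -0.32 at 10 Gy of PT alone (0.25), while ALDH1L2 was -0.58 (-0.11) and ALDH18A1 -0.26 (0.36) at 2 Gy. Of 12 tRNA synthetases, 4 rose and 7 fell at 2 Gy, 3 and 8 at 10 Gy, 4 and 6 with Si306 + 2 Gy, and 3 and 6 with Si306 + 10 Gy, while 10, 10, 11 and 10 rose under median centring. YARS rose by 0.78 at 2 Gy and 0.74 at 10 Gy and fell on both scales with Si306 + 2 Gy, to -0.27 (-0.21). AARS rose by 0.37 at 2 Gy, TARS by 0.23 and SARS by 0.16 with Si306 + 2 Gy and WARS by 0.27 with Si306 + 10 Gy, while GARS was -0.65 (-0.16) and IARS -0.54 (0.16) at 2 Gy, LARS -0.42 at 10 Gy (0.06) and EPRS -0.43 with Si306 + 10 Gy (0.25).

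Of 13 genes of the IRE1 and XBP1 arm, 4 rose and 3 fell at 2 Gy, 6 and 3 at 10 Gy, 4 and 5 with Si306 + 2 Gy, and 3 and 7 with Si306 + 10 Gy, while 11, 12, 13 and 11 rose under median centring. DNAJB9, an ER cochaperone, rose by 0.28 at 10 Gy, 0.78 with Si306 + 2 Gy and 0.43 with Si306 + 10 Gy, and SEC61G by 0.28 at 10 Gy. SEC24D fell at 2 Gy, to -0.63 (-0.08 under median centring), and rose by 0.59 and 0.41 with Si306. EDEM1 rose by 0.28 at 2 Gy but was -0.24 at 10 Gy (0.24) and -0.39 with Si306 + 2 Gy (0.23). ERN1, which encodes IRE1, was -0.52 at 2 Gy and -0.43 at 10 Gy (0.00 and 0.02 under median centring), and SSR1 -0.47 (-0.10) and SPCS3 -0.46 (0.27) with Si306 + 10 Gy. Of 18 genes of the ATF6 arm and ER chaperones, 8 rose and 7 fell at 2 Gy, 5 and 8 at 10 Gy, 10 and 3 with Si306 + 2 Gy, and 7 and 3 with Si306 + 10 Gy, while 16, 15, 16 and 14 rose under median centring. HYOU1 rose by 0.45 at 2 Gy and 0.48 at 10 Gy, SDF2L1 by 0.44 at 10 Gy, ARMET (MANF) by 0.61 and HSP90B1 by 0.48 with Si306 + 2 Gy, and ATF6 by 0.46 with Si306 + 10 Gy. PDIA4 was -0.69, -0.94, -0.45 and -0.48 in the 4 configurations (0.01, -0.36, 0.54 and 0.15), PDIA3 -0.37 at 2 Gy (0.30), PPIB -0.19 with Si306 + 2 Gy (0.69) and PDIA6 -0.38 with Si306 + 10 Gy (0.25). Of 15 genes of ER-associated degradation, 6 rose and 5 fell at 2 Gy, 6 and 5 at 10 Gy, 7 and 4 with Si306 + 2 Gy, and 6 and 5 with Si306 + 10 Gy, while 15, 14, 15 and 13 rose under median centring. SEL1L, the partner of the ligase SYVN1, rose by 1.12 and 0.96 with Si306 while SYVN1 was -0.46 and -0.55 (0.50 and 0.07), NPLOC4 rose by 0.63 at 2 Gy and 0.70 at 10 Gy but was -0.28 with Si306 + 2 Gy (0.19), HERPUD2 rose by 0.35 at 2 Gy and OS9 by 0.39 at 10 Gy, and EDEM2 was -0.42 (0.19) and UBE2J1 -0.41 (0.17) at 2 Gy and DERL3 -0.27 with Si306 + 10 Gy (-0.19).

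The lists were also read in the fit with every scan kept under its label, where 29.6% of all probes rose and 23.6% fell at 2 Gy, 29.9% and 24.4% at 10 Gy, 30.2% and 23.5% with Si306 + 2 Gy, and 26.7% and 22.2% with Si306 + 10 Gy. At 2 Gy, 4 genes for eIF2 and its regulators then rose and 3 fell, 2 and 3 of the dimer partners, 4 and 0 of the stress targets (0 also at unadjusted p in limma), 1 and 4 of the transporters, 1 and 4 of the serine, one-carbon and proline enzymes and 4 and 7 of the tRNA synthetases. At the same dose 2 rose and 3 fell in the IRE1 and XBP1 arm, 5 and 6 in the ATF6 arm and 6 and 5 in ER-associated degradation. At 10 Gy the counts in the same order were 7 and 3, 1 and 4, 4 and 0 (0 also at unadjusted p), 1 and 5, 1 and 4, and 3 and 6, then 4 and 2, 5 and 8, and 5 and 4. In this fit the eIF2 genes that fell with Si306 + 2 Gy went from 5 to 3 and the tRNA synthetases that rose from 4 to 2, and the fallen stress targets from 1 to 0 (0 also at unadjusted p). The eIF2 genes that fell with Si306 + 10 Gy went from 6 to 3, the transporters that fell from 5 to 2 and the stress targets that rose from 5 to 3. Each named gene kept its sign. The calls of EIF2S2 (-0.15), GPT2 (-0.09), VLDLR (-0.12), SLC6A9 (0.09), ALDH18A1 (-0.15) and EDEM1 (0.12) at 2 Gy were lost, as were those of SLC7A11 (0.04), EDEM1 (-0.07) and ATF5 (0.14) at 10 Gy and of GPT2 with Si306 + 2 Gy. GDF15 at 2 Gy was 0.63 in place of 0.31 and HERPUD2 0.21 in place of 0.35, both still called.

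**Figure D5:**
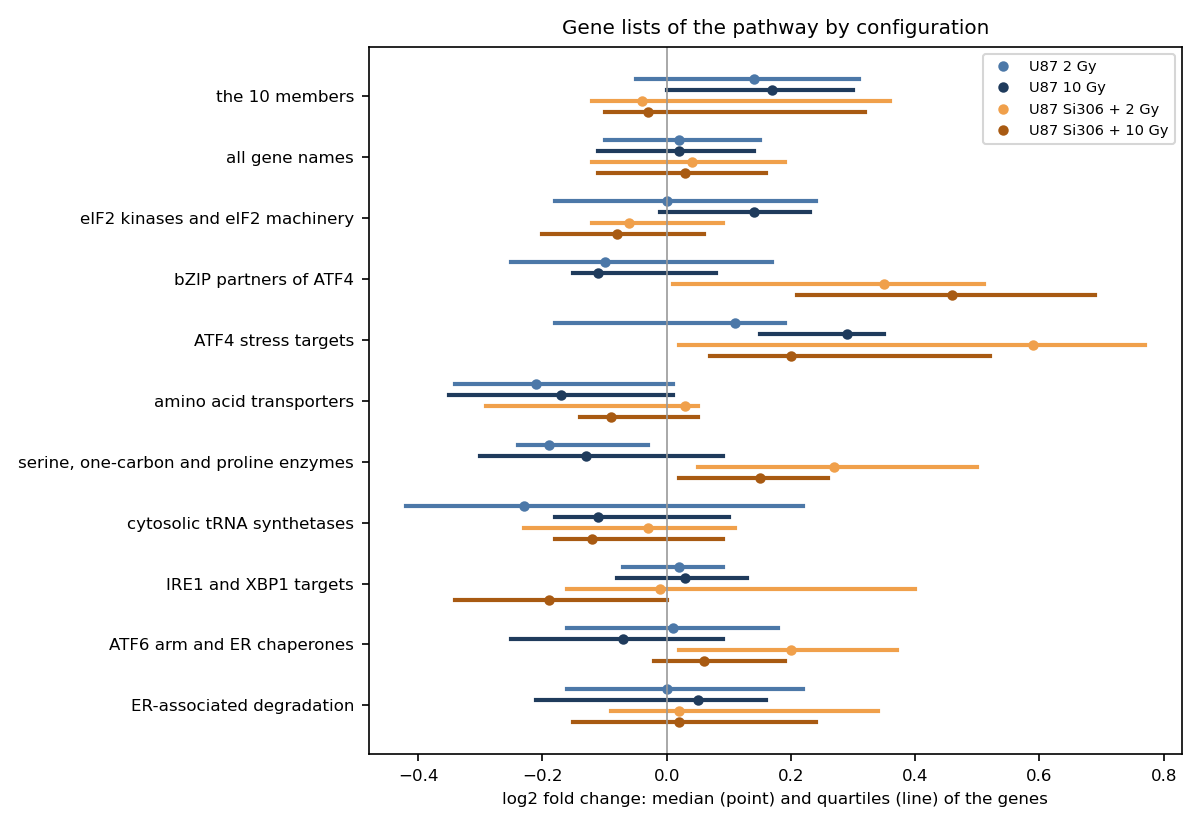
Median (points) and quartiles (lines) of the log2 fold changes of the members and of the lists of pathway genes in the 4 configurations. The list medians run from -0.23 for the tRNA synthetases at 2 Gy to 0.59 for the ATF4 stress targets with Si306 + 2 Gy, and under median centring these are 0.46 and 1.26. Those of the dimer partners of ATF4 are 0.35 and 0.46 with Si306 at 2 and 10 Gy, beside 0.04 and 0.03 over all names.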

How the data were processed

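RNA of U87 cells was hybridized to Agilent arrays, and the authors deposited 1 table per scan and a series matrix. The deposited tables give spot intensity (mean signal and median local background of each dye, linear scale, not normalized) and a log10 ratio of Cy5 to Cy3 that the authors' scanner software made after its own background subtraction and dye normalization. The deposited series matrix is this log10 ratio rounded (largest difference 0.005), with column medians of 0. Intensities were used here, over 45015 spots per scan. Control spots and spots marked as outliers by signal or local background in either dye (3.1% to 5.98% of a scan) were left out. Normexp correction (offset 50) and loess within each scan followed, and repeat spots and then the scans of an array were averaged.

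A probe was kept if 1 configuration had it well above background, in either dye, on 2/3 or more of its arrays: 30329 of 41000 probes and 22859 of 30982 names. In Cy3, 57.3% to 66.5% of a scan's probes were well above background, and in Cy5 63.4% to 74.7%, and at most 0.0156% of the spots were saturated. One limma 3.58.1 model (R 4.3.3; 4 residual and 6.81 prior degrees of freedom) tested each configuration mean against 0 and the doses against each other, two-sided, with Benjamini-Hochberg adjustment over all kept probes. Named genes of each list are, per configuration, up to 2 with the highest and up to 2 with the lowest log2 fold change among those called with the same sign on every array; some already named for another configuration are not repeated, and some genes of the lists are not reported by name. The likeness to a member uses the smallest distance over the 4 configuration means. The members and the lists were chosen with earlier results of these data known. Of the listed genes, ADM2, S100B, PTPRC, KRT5 and CDH1 were not kept and RBFOX3 is not on the array. The alternatives were other uses of the scans, blocks, scan time, background corrections, scalings, filters, probe summaries, a curve on GC content, arrays left out and keeping spots marked by local background. Of them 2 were chosen after seeing the data, the last named among these.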

Additional observations from a re-analysis of the deposited data

Results flagged for a closer look

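For 7 of the 10 genes, the log2 ratio differed between 10 Gy and 2 Gy of PT alone by a test of the difference itself. Among all names 20.5% were called. The values, 10 Gy minus 2 Gy, were 0.65 for CHAC1, 0.39 for DDIT3, 0.28 for HERPUD1, 0.24 for PSAT1, 0.22 for XBP1, -0.22 for TRIB3 and -0.33 for HSPA5. Under median centring HERPUD1, PSAT1 and XBP1 were at 0.16, 0.13 and 0.11 and not called (adjusted p = 0.248, 0.32 and 0.377), while the other 4 stayed called. Of all tested probes 15.7% were then called. For 3 genes the ratio of Si306 + PT to PT alone differed between the doses, at -0.43 for HERPUD1, -0.41 for DDIT3 and -0.30 for HSPA5. This stands beside 22.0% of all names called. With every scan under its label DDIT3 and HSPA5 were not called there (adjusted p = 0.126 and 0.261), and with spots marked by local background kept none of the 3 was (adjusted p = 0.0698, 0.252 and 0.122). The second probe of HSPA5, TRIB3 and XBP1 gave -0.22, -0.19 and -0.04 for PT alone, 0 of them called in limma (2 at unadjusted p). Under median centring the second probes of HSPA5 and TRIB3 were called, at -0.37 and -0.27 (adjusted p = 0.00696 and 0.0248). That of XBP1 was not (-0.12, adjusted p = 0.318). When every scan was kept under its label, 0 of the PT-alone differences were called in limma, also at unadjusted p (adjusted p = 0.996 for each), beside 0% of all probes.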

How the results depend on the processing

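Each of 60 values (10 genes, 4 configurations and the dose differences) was recomputed in 24 alternatives, 22 planned and 2 chosen after seeing the data, which gives 1440 values. Of these, 1324 kept their side of the threshold, 1279 with the same sign and 45 uncalled with a changed sign, 58 lost a call, 33 gained one and 25 reversed. Under median centring the sign reversed to 0.70 for TRIB3, 0.23 for CHAC1 and 0.45 for XBP1 at 2 Gy; to 0.34 for TRIB3, 0.51 for PHGDH and 0.56 for XBP1 at 10 Gy; to 0.97 for TRIB3, 0.94 for ASNS, 0.90 for PSAT1, 0.33 for PHGDH, 1.11 for XBP1 and 0.98 for HERPUD1 with Si306 + 2 Gy; and to 0.65, 0.61, 0.57, 0.24, 0.64 and 0.08 for the same genes with Si306 + 10 Gy. The Si306 dose difference reversed to -0.32 for TRIB3, -0.33 for ASNS and -0.23 for CHAC1. With the mean of a gene's probes, TRIB3 reversed to 0.19 at 2 Gy and HSPA5 to -0.09 at 2 Gy, -0.36 at 10 Gy and -0.07 with Si306 + 10 Gy. The cause was not tested.

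A count is said to move when it differs by more than 1.5 times. Below that, median centring raised the members called from 7 to 10 at 2 Gy (84.5% of all tested probes called). It raised them from 7 to 10 with Si306 + 2 Gy (89.3%) and from 7 to 9 with Si306 + 10 Gy (79.9%). Keeping the marked spots lowered them from 7 to 5 with Si306 + 2 Gy (24.8%). The count of members called moved to 10 at 10 Gy under median centring (80.9% of all tested probes), and to 4 with Si306 + 10 Gy with every scan under its label (48.9%) or with spots marked by local background kept (17.2%). For the dose difference of PT alone it moved to 0 with every scan under its label (0 at unadjusted p in limma) and to 4 with the marked spots kept (3.14%). For Si306 it moved to 1 with every scan under its label (7.87%), 9 under median centring (59%) and 0 with the marked spots kept (3 at unadjusted p in limma). With 1 array left out in turn, the median log2 fold change of the members ranged from 0.13 to 0.14 at 2 Gy and stayed at 0.17 at 10 Gy. It ranged from -0.07 to -0.02 with Si306 + 2 Gy and from -0.03 to -0.01 with Si306 + 10 Gy. Here the lone array is assumed to vary like the others.

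With scans as samples and the replicate number as a block, 9, 7, 9 and 8 members were called in the configurations and 8 and 3 for the dose differences, where 70%, 71%, 78.4%, 76%, 41.8% and 50.5% of all tested probes were called. Repeat scans then count as replicates, and replicate numbers do not pair samples: the correlation of scans with the same number had a median of 0.00155 over 30 pairs, and with other numbers 0.00178 over 151. With the array as a random block the counts were 7, 6, 8, 8, 8 and 3, beside 58.9%, 59.8%, 66.9%, 63%, 27.1% and 29.9% of the probes. Signal over background limits the dim probes, such as the second ASNS probe.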
